A study of Mus musculus with 6 samples.

Results

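The oligoadenylate synthetase genes Oas1a, Oas1b, Oas1c, Oas1g, Oas2, Oas3, Oasl1 and Oasl2 were followed in RNA sequencing data of mouse bone marrow-derived macrophages. The members were taken by gene symbol, and all 8 had a row among the 23034 genes of the table. All 6 libraries came from wild-type primary marrow cells that had been differentiated with M-CSF at 10 ng/ml and brought to the M2 state by 24 hours in 20 ng/ml IL-4. After reseeding, the cells of 3 libraries received PBS (control) and those of the other 3 received SA@BATMAN5 for 24 hours. The series title places this agent among tuftsin clusters directed at Fc gamma receptors, studied in infections after sepsis. The labels give neither the dose of SA@BATMAN5 nor the age, sex or strain of the mice, nor whether IL-4 was still present during treatment. They also leave out whether replicates were separate animals or cultures, so the p-values rest on library-to-library spread that may be technical.

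Oligoadenylate synthetases are interferon-induced enzymes that bind double-stranded RNA, a hallmark of viral infection, and link ATP into short chains of adenylates known as 2-5A. In the mouse the Oas1 gene has been duplicated many times, and of its copies Oas1a and Oas1g encode active synthetases. Oas1b lacks synthetase activity, and its full-length form confers resistance to flaviviruses in mice. Oas2 and Oas3 carry repeated copies of the synthetase unit. Oasl1 and Oasl2 carry ubiquitin-like domains at their ends. Oasl1 is inactive as a synthetase and is known in mice to hold back translation of the Irf7 mRNA, whereas Oasl2 keeps enzyme activity.

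All 8 genes lie on chromosome 5 of the RefSeq annotation (GRCm38.p6), in a pair of groups. Oasl2 and Oasl1 stand near each other, with 1 long noncoding RNA gene between them. The others stand in a run bounded by Dtx1 and Rph3a, with Oas2 and Oas3 at one end and Oas1g and Oas1a towards the other. Oas1b and Oas1c point away from each other, and their annotated starts are 121 bases apart in GENCODE M21 (GRCm38). The longest coding transcript of Oas1b in that annotation has 753 coding bases, against 1101 in both Oas1a and Oas1g and 3414 in Oas3, and the gene is classed as a polymorphic pseudogene. Of the 50-base windows of the Oas1a transcript, 57.6% also occur in a transcript of Oas1g. For Oas1c 16.3% of windows are shared with another gene, for Oas1b 3.42% and for Oas3 0.792%, and for Oas2, Oasl1 and Oasl2 the share is 0. Reads of Oas1a and Oas1g may therefore be divided by the counting tool, and their separate levels are uncertain. Exons of Oas1c and Oasl1 overlap predicted genes on the opposite strand, and the strand setting of the counting is not given in the sources used here.

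Promoter windows of 300 bases (250 before the annotated start and 50 from it) were in the RefSeq table for 6 of the 8 members. The windows were searched for the core of the interferon-stimulated response element, spelled GAAANNGAAA, on both strands with overlaps allowed. This is the sequence that the interferon-activated complex ISGF3 is known to bind. The core was present in 4 of the 6 windows, those of Oas1a, Oas1g, Oas1c and Oas3, and in 3.44% of all 32851 windows of the table. The stretches below are shown because the members differ in whether and where they hold the core, which is in capitals. They are written 5′ to 3′ on the strand of the gene, from RefSeq on build GRCm38.p6. The files were made on GRCm39, so these coordinates belong to the reference and not to the data. Oas1a is read from chr5:120907488-120907587 on the minus strand, Oas1g from chr5:120887574-120887673 on the minus strand and Oas3 from chr5:120777680-120777779 on the minus strand. The Oas1b line is the Oas1c window read on the plus strand, chr5:120812571-120812670. Oasl1 (chr5:114922990-114923289) and Oasl2 (chr5:114896684-114896983) are on the plus strand and are given whole, since neither window holds the core.
Oas1a: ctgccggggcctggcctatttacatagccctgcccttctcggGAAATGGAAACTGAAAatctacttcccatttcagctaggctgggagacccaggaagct
Oas1g: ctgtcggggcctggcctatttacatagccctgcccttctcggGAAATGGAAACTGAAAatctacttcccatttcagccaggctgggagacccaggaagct
Oas1b: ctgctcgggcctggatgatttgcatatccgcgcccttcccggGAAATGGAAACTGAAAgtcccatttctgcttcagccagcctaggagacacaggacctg
Oas3: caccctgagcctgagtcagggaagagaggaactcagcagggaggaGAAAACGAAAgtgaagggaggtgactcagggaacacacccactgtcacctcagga
Oasl1: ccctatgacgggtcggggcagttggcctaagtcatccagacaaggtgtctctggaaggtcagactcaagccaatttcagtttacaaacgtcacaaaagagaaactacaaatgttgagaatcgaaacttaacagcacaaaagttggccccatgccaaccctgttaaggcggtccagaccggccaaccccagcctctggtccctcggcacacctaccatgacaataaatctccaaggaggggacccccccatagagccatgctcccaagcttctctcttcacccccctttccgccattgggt
Oasl2: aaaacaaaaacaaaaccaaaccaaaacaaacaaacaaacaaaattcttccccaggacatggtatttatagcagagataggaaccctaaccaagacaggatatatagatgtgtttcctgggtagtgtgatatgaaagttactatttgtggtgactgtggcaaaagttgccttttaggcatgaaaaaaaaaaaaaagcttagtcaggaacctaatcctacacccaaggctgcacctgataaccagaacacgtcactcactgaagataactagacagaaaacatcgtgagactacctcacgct

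In Oas1a a pair of overlapping cores forms a run of 16 bases, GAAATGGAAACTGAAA, at positions -20 to -5 from the annotated start. The same run stands at -18 to -3 in Oas1g, whose stretch is identical to that of Oas1a at 98 of 100 bases. It also stands between Oas1b and Oas1c, in the sense orientation of Oas1b at -22 to -7 from its GENCODE start and on the opposite strand at -114 to -99 from the start of Oas1c. Read from the Oas1b side, that stretch matches Oas1a at 74 of 100 bases. The run was found on either strand in 7 of the 32851 windows (0.0213%), belonging to 5 genes: Oas1a, Oas1g, Oas1c, Apol9a and Apol9b. Oas3 has 1 core at -75 to -66. The core of the gamma-activated site, another element of interferon signalling, spelled TTCNNNGAA, was found in the Oas1a window alone among the 6, and in 8.30% of all windows. These matches describe letters and not binding, and say nothing of elements outside the windows.

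**Figure D1:**
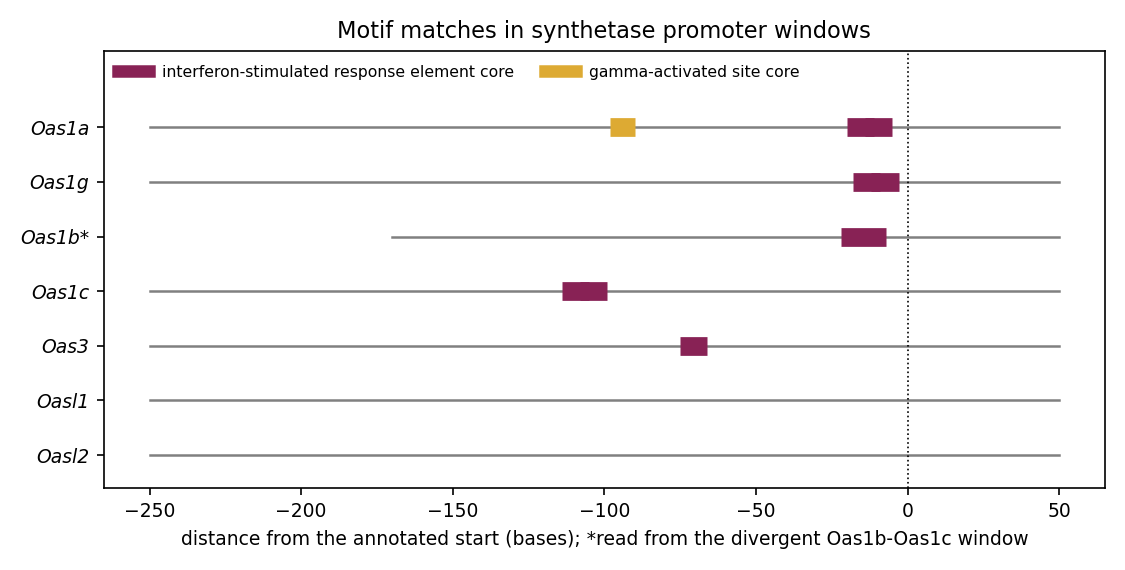
Positions of motif matches in promoter windows, as distance in bases from the annotated start (dotted line), with 1 grey line per gene for the bases searched. Interferon-stimulated response element cores lie close to the start in Oas1a, Oas1g and Oas1b (read from the Oas1b-Oas1c window, so its line begins later), farther off in Oas1c and Oas3, and in neither Oasl1 nor Oasl2.

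Control libraries held 38740103 to 47018154 counts and SA@BATMAN5 libraries 29739263 to 37212125, with no overlap between the groups in depth. A count of 3, taken as the floor, equals 0.0620 to 0.103 CPM (counts as a rate per library total, the totals scaled by TMM). Cell type markers were read against all genes tested, of which 29.5% were called higher and 28.7% lower with SA@BATMAN5. All 6 macrophage markers were present, 4 of them higher and 2 lower with SA@BATMAN5. Adgre1, which encodes F4/80, went from 847 to 2830 CPM on average, while Cd68 went from 1506 to 1272 CPM and Itgam from 2282 to 1706 CPM. Of 8 fibroblast and stromal markers 6 were tested and 5 were higher with SA@BATMAN5, their summed level going from between 752 and 936 CPM to between 1077 and 1241 CPM, with Lum at 0 counts. Of 8 neutrophil markers 2 were higher and 1 lower, with summed levels of 8.72 to 8.99 and 59.4 to 70.1 CPM, most of it S100a8, while Ly6g, Mpo, Retnlg and Ctsg had 0 counts. Lymphocyte markers summed to between 0.702 and 1.60 CPM in controls and between 2.72 and 6.54 CPM with SA@BATMAN5, with 2 of 7 higher and Cd3e and Cd3d at 0. The highest of these sums was in SA@BATMAN5 replicate 3, where Ms4a1 had 87 counts against 0 in the other treated libraries, and without that library the highest treated sum was 4.25 CPM. Of the lymphocyte markers called higher, Cd79a was close to the threshold (adjusted p 0.0498, edgeR). It had 12, 3 and 5 counts in controls and 10, 11 and 19 with SA@BATMAN5. Cd79a passed the main filter on low counts only through the treated libraries, so its call is weak support. Plasmacytoid dendritic cell markers summed to 61.8 to 64.6 and 51.3 to 56.9 CPM, most of it Tcf4, with 1 of 5 higher, 1 lower and Siglech and Klk1 at 0. The lower one was Tcf4, from 61.9 to 51.6 CPM on average, and the higher one Ccr9, from 0.142 to 1.29 CPM. Ccr9 had 4, 7 and 8 counts in controls, and Dcn, among the stromal markers called higher, had 4, 0 and 5. Both passed the main filter only through the treated libraries, where they were high, so their calls are weak support. What part cells of these types had in the levels below was not tested. After thinning to equal depth, all 8 members were still called higher with SA@BATMAN5 in edgeR. Their log2 fold changes there included 5.75 for Oasl1, the largest, and 0.92 for Oas1c, the smallest. In such bulk RNA a change in the number of cells that express a gene and a change in RNA per cell cannot be told apart.

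The comparison asked how SA@BATMAN5 changed transcript levels in M2 macrophages. All 8 synthetase genes were higher with SA@BATMAN5, by between 1.94-fold for Oas1c and 55.8-fold for Oasl1. Their summed level went from 134 to 140 CPM in the control libraries to 1715 to 1772 CPM in the treated ones. In edgeR's quasi-likelihood test with Benjamini-Hochberg adjustment over 13474 genes at 0.05, 29.5% of genes were called higher and 28.7% lower. With upper-quartile scaling the whole-table counts moved from 3980 higher and 3866 lower to 3239 and 4791, and all 8 members were called higher there too. A rise of at least 8-fold was called for 5 of the 8 members and for 2.45% of genes tested. Every treated library lay above every control library for all 8 members, as it did for 32.1% of genes tested. The members' median log2 fold change was 3.51 and that of all genes -0.00408. With limma on log2(FPKM + 1), a scale that shrinks changes of low genes, the log2 fold change was 1.80 for Oas1b, 3.42 for Oas2 and 5.13 for Oasl1. Log2 fold changes below are SA@BATMAN5 over control, ± SE, and levels are CPM as mean ± SD over n = 3 libraries.

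**Figure D2:**
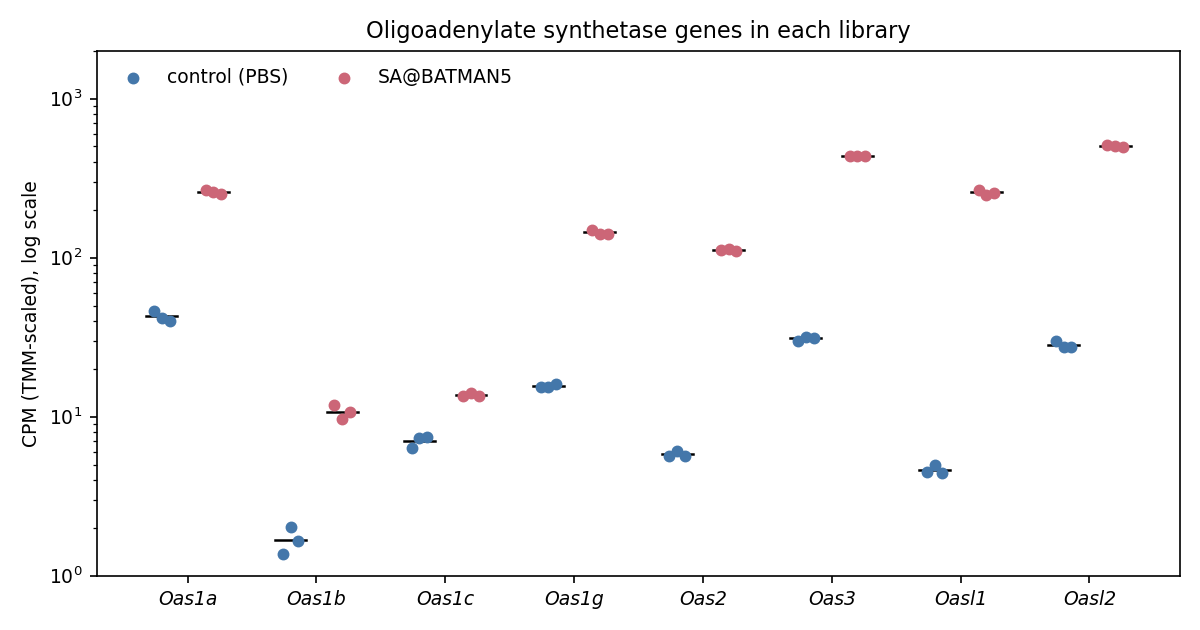
CPM of each synthetase gene in each of the 6 libraries on a log axis, with 1 point per library and a black line at the group mean. The groups are apart for every gene shown, by the widest margin for Oasl1 and the narrowest for Oas1c.

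Of the Oas1 genes, Oas1a had the highest control level, at 46.4, 41.8 and 39.9 CPM in the 3 control libraries, and stood at 268, 257 and 250 CPM in the 3 treated ones. The treated values were thus high in all 3 libraries and far from the control range. Its log2 fold change was 2.60 ± 0.05 (adjusted p 1.56e-14, edgeR). Its close copy Oas1g, the other active synthetase of this group, stood at 15.4, 15.3 and 16.1 CPM in controls and 149, 142 and 142 CPM with SA@BATMAN5. Oas1g rose by more, with a log2 fold change of 3.21 ± 0.05 (adjusted p 3.74e-16, edgeR) and a 95% interval of 3.11 to 3.30, against 2.48 to 2.71 for Oas1a. The ratio of Oas1a counts to Oas1g counts within a library accordingly went from 2.74 ± 0.270 to 1.79 ± 0.0267, without overlap (exact permutation test, two-sided, p = 0.1, which is the lowest value 3 against 3 can reach). The control ratios were spread more widely than the treated ones, from 2.47 to 3.01. That ratio depends on how reads common to both genes were assigned.

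The divergent pair Oas1b and Oas1c differed in response although their annotated starts are neighbours. Oas1b, the flavivirus-resistance gene, had 64, 81 and 80 counts in the control libraries and 426, 280 and 390 with SA@BATMAN5, or 1.68 ± 0.333 and 10.8 ± 1.10 CPM. Its rise was 6.42-fold (log2 fold change 2.68 ± 0.16, adjusted p 2.59e-09, edgeR). Oas1c stood at 6.32, 7.37 and 7.41 CPM in controls and 13.5, 14.1 and 13.4 CPM with SA@BATMAN5. It had the smallest rise of the members (log2 fold change 0.96 ± 0.10, adjusted p 1.23e-06, edgeR), with an interval of 0.74 to 1.17 against 2.34 to 3.02 for Oas1b. Oas1b counts per Oas1c count rose from 0.238 ± 0.0325 to 0.788 ± 0.0959, with no overlap between groups (two-sided exact permutation p = 0.1, the smallest possible). Of the Oas1 copies outside the members, Oas1e and Oas1f had 0 counts in all libraries, which allows up to 3 counts in each, and Oas1d had 2 counts in 1 control library. Oas1h had 3, 0 and 3 counts in controls and 12, 9 and 13 with SA@BATMAN5, and was called higher (log2 fold change 2.84 ± 0.72, adjusted p 0.00395, edgeR). Oas1h passed the main filter only through the treated libraries, where it was high, so its call is weak support. It was not kept by a filter at 1 CPM or after thinning to equal depth.

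The larger synthetases rose further than the Oas1 genes. Oas2 stood at 5.64, 6.04 and 5.68 CPM in controls and 111, 113 and 110 CPM with SA@BATMAN5, a 19.3-fold rise (log2 fold change 4.27 ± 0.05, adjusted p 8.45e-17, edgeR). Oas3 stood at 30.1, 31.8 and 31.3 CPM in controls. With SA@BATMAN5 it reached 438, 434 and 436 CPM, a spread of 2.23 CPM (SD) around 436. This was a 14.0-fold rise (log2 fold change 3.81 ± 0.04, adjusted p 1.18e-17, edgeR). In both genes the treated libraries lay close together and far above the controls. The intervals of the log2 fold change, 4.16 to 4.38 for Oas2 and 3.73 to 3.89 for Oas3, did not overlap with those of any of the 4 Oas1 members.

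The Oas-like genes held the highest single level and the largest fold. Oasl1, the brake on Irf7 translation, stood at 4.50, 4.99 and 4.40 CPM in controls and 268, 249 and 256 CPM with SA@BATMAN5 (log2 fold change 5.80 ± 0.06, adjusted p 1.02e-17, edgeR). It ranked 107th by fold among all genes tested. Oasl2 went from 30.1, 27.6 and 27.3 CPM to 513, 501 and 497 CPM, 17.8-fold higher (log2 fold change 4.15 ± 0.04, adjusted p 2.29e-17, edgeR). Within each library the FPKM of Oasl1 relative to that of Oasl2 went from 0.226 ± 0.0212 to 0.705 ± 0.0150, without overlap (two-sided exact permutation p = 0.1). Neither gene shares 50-base windows with another transcript, but the exons of Oasl1 overlap those of Gm13822 on the opposite strand. These were also the members whose promoter windows held no match to the response element core. Irf7, the interferon regulatory factor whose mRNA Oasl1 acts on, rose from 9.08 ± 0.650 to 871 ± 64.5 CPM, with a log2 fold change of 6.58 ± 0.07 (edgeR, adjusted p 1.82e-17).

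Summed over the 8 genes, FPKM was 47.9, 46.8 and 45.8 in the controls and 533, 523 and 507 with SA@BATMAN5, an 11.1-fold difference between means. Levels per transcript length were read from FPKM, which the authors scaled for length as well as depth. The length implied by count, FPKM and library total was not constant over the libraries. Its highest value over its lowest was 1.22 for Oas1b, 1.12 for Oas1g and 1.08 for Oas1c, and at most 1.05 for the other members. In controls Oas1a was the highest at 19.3 FPKM, followed by Oasl2 at 7.98, Oas1g at 7.33, Oas3 at 5.61, Oas1c at 2.72, Oasl1 at 1.80, Oas2 at 1.30 and Oas1b at 0.845. The ranges of Oasl2 and Oas1g overlapped, and no other neighbours in that order did. With SA@BATMAN5 the order was Oasl2 at 137 FPKM, Oas1a at 111, Oasl1 at 96.8, Oas3 at 75.6, Oas1g at 66.5, Oas2 at 23.6, Oas1b at 5.43 and Oas1c at 5.08. Here the ranges of Oas1b and Oas1c were the ones that overlapped. Oasl1 thus moved up past Oas1c, Oas3 and Oas1g, and Oas1c moved down to the last place, next to Oas1b.

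As a share of the summed FPKM of the 8 genes, Oas1a fell from 41.1% ± 2.42 to 21.2% ± 0.291 (SD, n = 3). The share of Oasl1 rose from 3.84% ± 0.261 to 18.6% ± 0.381 and that of Oasl2 from 17.0% ± 0.684 to 26.4% ± 0.0721. Oas3 went from 12.0% ± 0.506 to 14.5% ± 0.274 and Oas2 from 2.78% ± 0.0973 to 4.53% ± 0.143. Oas1g went from 15.7% ± 1.48 to 12.8% ± 0.0287, Oas1c from 5.82% ± 0.615 to 0.975% ± 0.0511 and Oas1b from 1.81% ± 0.358 to 1.04% ± 0.0474. All 4 Oas1 genes thus took a smaller part of the total, and the other 4 a larger part, in every treated library compared with every control. Each of these 8 shares gave a two-sided exact permutation p of 0.1 (0.1 after Benjamini-Hochberg adjustment over the 8), the smallest that this design can give, so none could pass 0.05. Shares within a library do not depend on scaling between libraries, but they are tied to each other because they sum to 100%.

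**Figure D3:**
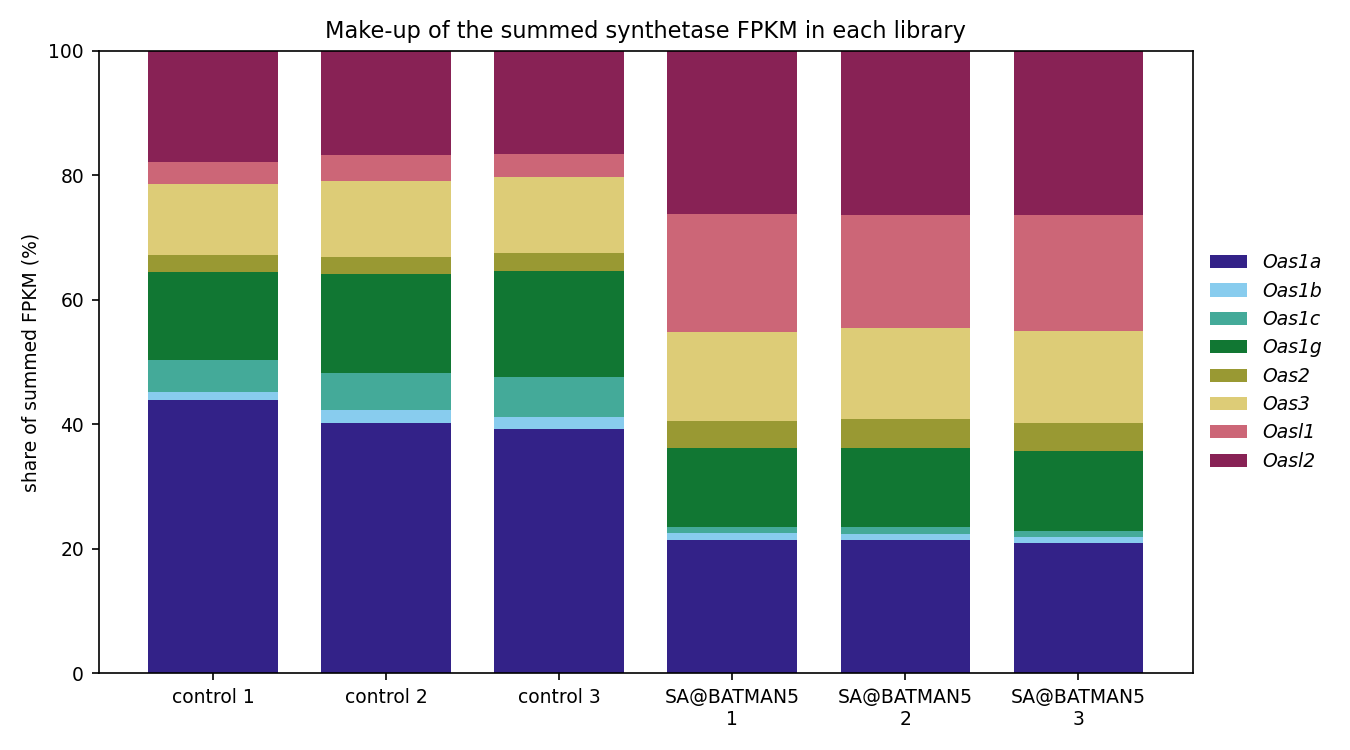
Share of each synthetase gene in the summed FPKM of the 8 genes, in percent, with 1 stacked bar per library. Oas1a takes 41.1% on average in the control bars and 21.2% in the SA@BATMAN5 bars, where Oasl1 has grown from 3.84% to 18.6%.

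The list on 2-5A breakdown had 3 of 3 genes lower with SA@BATMAN5, where 28.7% of all genes tested were called lower. Of these calls, only that of Pde12 held under every alternative. Pde12, a phosphodiesterase that breaks down 2-5A, fell from 36.6 ± 0.861 to 22.7 ± 0.951 CPM, with a log2 fold change of -0.69 ± 0.06 (edgeR, adjusted p 1.08e-07). Akap7, which also has such phosphodiesterase activity in mice, fell from 9.04 ± 0.981 to 6.87 ± 0.258 CPM (adjusted p 0.00848, edgeR). That call was lost after thinning to equal depth (adjusted p 0.0522) and with limma on log2(FPKM + 1) (0.0571) and log2(FPKM + 0.1) (0.0566). Abce1, a ribosome recycling factor that was listed with these enzymes, fell from 116 ± 1.68 to 106 ± 4.39 CPM, with a log2 fold change of -0.13 ± 0.04 (edgeR, adjusted p 0.0108). Without SA@BATMAN5 replicate 1 its adjusted p was 0.0553. The median log2 fold change of the 3 genes was -0.39.

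Among 8 genes of type I interferon signalling, 7 were higher and 1 lower, with a median log2 fold change of 0.80. Of all genes tested, 29.5% were called higher and 28.7% lower. Of the genes for ISGF3, Stat2 rose from 49.2 ± 1.85 to 327 ± 13.9 CPM and Irf9 from 29.2 ± 0.759 to 83.4 ± 1.28 CPM. The receptor chains Ifnar1 and Ifnar2 rose by 0.52 ± 0.04 and 0.91 ± 0.04 on the log2 scale, and the kinase gene Tyk2 by 0.69 ± 0.04. Jak1, the partner kinase, was called higher with a log2 fold change of 0.14 ± 0.03 (edgeR, adjusted p 0.00258), and not with library totals only (0.0892), upper-quartile scaling (0.124) or limma on either FPKM scale. Of the feedback genes, Usp18, which restrains the interferon receptor, rose from 7.60 ± 0.348 to 99.1 ± 4.78 CPM. Socs1, an inhibitor of JAK kinases, fell from 20.7 ± 1.18 to 10.8 ± 0.647 CPM, with a log2 fold change of -0.94 ± 0.08 (edgeR, adjusted p 1.82e-07).

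The 9 interferon genes examined here were at or near 0 counts. Ifnb1 had 0 counts in all control libraries and 5, 0 and 5 counts with SA@BATMAN5. Ifng had 0 counts in controls and 10, 5 and 16 with SA@BATMAN5. Ifna2 and Ifna5 had 2 counts each, both in 1 treated library, and Ifna1, Ifna4, Ifna12, Ifnl2 and Ifnl3 had 0 counts in all libraries, which allows up to 3 counts in each. None of these 9 genes passed the main filter on low counts. With no filter, Ifng was tested and called higher (edgeR, adjusted p 0.00218) and Ifnb1 was not (0.0748). Ifng also passed the filter and was called higher without any 1 control library (0.00291 to 0.00384) and without SA@BATMAN5 replicate 2 (0.00150). With 0 counts in controls, it passed there only through the treated libraries, so these calls are not separate support for a rise. Of the 5 regulators in the same list, Irf7, Irf1 and Irf8 were higher, where 29.5% of all genes tested were called higher. Irf3 stood at 26.2 ± 1.59 and 26.6 ± 0.594 CPM (adjusted p 0.804, edgeR) and Irf5 at 170 ± 10.2 and 179 ± 5.02 CPM (adjusted p 0.187).

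Of 9 other sensors of double-stranded RNA and their adaptors, 8 were higher and 1 lower, with a median log2 fold change of 1.50. The shares over all genes tested were 29.5% higher and 28.7% lower. Zbp1, which senses RNA in the Z form, rose from 6.04 ± 1.01 to 175 ± 8.35 CPM, and Rigi, the helicase sensor RIG-I, from 26.5 ± 1.08 to 228 ± 5.42 CPM. Eif2ak2, the kinase PKR, rose from 42.8 ± 2.32 to 121 ± 4.07 CPM. Adar, the enzyme that edits adenosine in double-stranded RNA, rose from 62.2 ± 3.68 to 166 ± 0.749 CPM. Ifih1, Dhx58, Tlr3 and Mavs rose by 0.38 to 2.48 on the log2 scale. Ticam1, the adaptor of TLR3, fell from 37.1 ± 0.252 to 22.7 ± 0.635 CPM (edgeR, adjusted p 4.26e-08). Cgas, a DNA sensor with the same enzyme fold as the synthetases, rose from 8.59 ± 0.508 to 19.1 ± 0.583 CPM (adjusted p 2.50e-08, edgeR). Its downstream receptor gene Sting1 stood at 44.7 ± 2.71 and 41.1 ± 0.408 CPM (adjusted p 0.0694, edgeR), and was called lower without control replicate 3 (0.0154) and with upper-quartile scaling (0.00478).

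**Figure D4:**
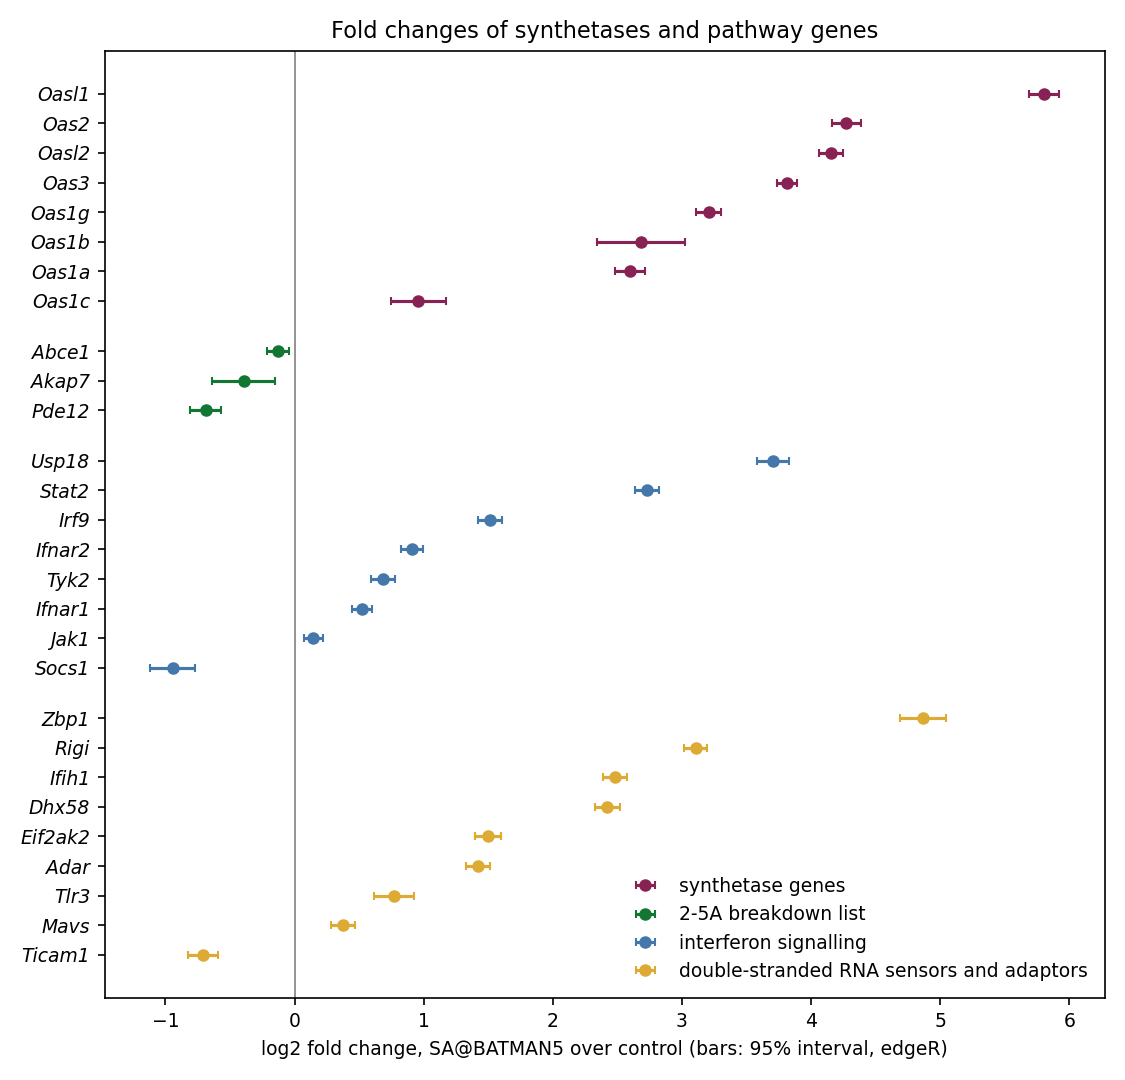
Log2 fold change, SA@BATMAN5 over control, of the 8 synthetase genes and of the 2-5A breakdown, interferon signalling and double-stranded RNA sensing lists, with bars for the 95% interval of edgeR's fit (n = 3 libraries per group). The synthetases run from 0.96 for Oas1c to 5.80 for Oasl1, and Pde12, Akap7, Abce1, Socs1 and Ticam1 lie below 0, of which Abce1 and Akap7 lost their call under the alternatives named in the text.

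The genes outside these lists whose profile over the 6 libraries lay closest to that of the summed synthetase counts were Ly6e, H2-Q4, Slfn8, Ddx60 and Nfkbia. Their root-mean-square differences, on log2 CPM centred on each gene's mean, were 0.0432, 0.0712, 0.0716, 0.0754 and 0.0766. Ly6e went from 84.6 ± 3.27 to 1032 ± 19.3 CPM. Since there were only 2 groups, this measure ranks genes mainly by the size of their change. The other genes with the 16-base run of Oas1a in a promoter window, Apol9a and Apol9b, went from 0.332 ± 0.0368 to 3.65 ± 0.226 CPM and from 0.221 ± 0.0245 to 10.0 ± 2.12 CPM. Both were called higher (log2 fold changes 3.45 ± 0.25 and 5.48 ± 0.23, adjusted p 2.70e-08 and 6.69e-11, edgeR), and as near copies of each other they may share reads. Control counts were low, at 14, 13 and 18 for Apol9a and 10, 8 and 12 for Apol9b. Apol9b passed the main filter only through the treated libraries, where it was high, so its call is weak support.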

How the data were processed

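RNA of 3 control and 3 SA@BATMAN5 samples (1.3 ug each) was made into SMARTer mRNA libraries and sequenced, per the labels. Raw counts per gene were used as deposited, per the file headers. FPKM values come from the authors, per the file headers. Per the submitters' processing notes, the tools included StringTie 2.1.2, HISAT2 2.2.0 and DESeq2 1.26.0, and the genome build was GRCm39. Which counting tool and annotation were used is not given in the sources used here. Columns named S-5 were read as SA@BATMAN5 and those named N as control, which is a reading of the names.

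Genes were filtered with filterByExpr (minimum count 10, minimum total 15), which left 13474. After TMM scaling, the quasi-likelihood test of edgeR 4.0.16 (glmQLFTest on a glmQLFit model, two-sided) was run in R 4.3.3, with Benjamini-Hochberg adjustment at 0.05. The common biological coefficient of variation was 6.91%. SEs were taken from the fold change and its F statistic, and intervals are 95%. Library totals set the precision of low counts, and the floor of 3 counts covers counting error only. Exact permutation tests used scipy 1.17.1. The procedure was tested on simulated data. Alternatives were other scalings, filters and tools (DESeq2 1.42.0, limma 3.58.1), a replicate block and each library left out, while thinning to equal depth was added after seeing the data. Replicates within a group differed by more than counting noise (4.57 to 8.10 in chi-square per degree of freedom). Members, gene lists, motifs and tests were chosen with earlier results of these data known. Named were all members, genes of the pathway lists and the 5 genes most like the summed members with at least 5 CPM, and Apol9a and Apol9b were added for their sequence. The authors' own comparison columns were not used here. Some genes of the lists are not reported here. Figures used matplotlib 3.10.9.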

Additional observations from a re-analysis of the deposited data

How the results depend on the processing

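All 8 members stayed higher under all 17 alternative fits. Log2 fold changes over these fits ran from 5.13 to 5.85 for Oasl1, 3.42 to 4.31 for Oas2, 3.95 to 4.19 for Oasl2, 3.54 to 3.83 for Oas3, 3.02 to 3.23 for Oas1g, 2.47 to 2.66 for Oas1a, 1.80 to 2.83 for Oas1b and 0.71 to 0.99 for Oas1c. The lowest value of each of the 8 came with log2(FPKM + 1). With the replicate number as a replicate block, 3927 genes were higher and 3818 lower, and all 8 members were called. Same-numbered libraries did not deviate together (correlations -0.07, -0.03 and -0.05 over 9897 genes), so the numbers were not taken as pairs. Of the list counts, other Oas1 copies called higher went from 1 to 0 with the filter at 1 CPM and after thinning. In the Cgas and Sting1 list, genes called lower went from 0 to 1 with library totals only, upper quartile and both FPKM fits, and ranged from 0 to 1 over the fits that left out 1 library, the call coming without control replicate 3. In the list of interferons and their regulators, genes called higher went from 3 to 4 by the addition of Ifng with no filter, without any 1 control library and without SA@BATMAN5 replicate 2. The counts that turned on Oas1h and Ifng changed because the filter left these genes out or let them in. The cause of the change for Sting1 was not tested. Differences in shares kept their sign with counts in place of FPKM, without any 1 library, and for the other genes' shares with Oas1a and Oas1g summed. Oas1b, the shallowest member at 64 to 81 control counts, was the least precise.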
